A study of Homo sapiens with 26 samples.

Results

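The genes described here are 10 members of the NF-kappaB system, followed through every library of the series. They were taken by symbol from both count tables, where each symbol had 1 row, and make up 10 of 26485 genes. They are the 5 subunits RELA, RELB, REL, NFKB1 and NFKB2, the 3 inhibitors NFKBIA, NFKBIB and NFKBIE, and the 2 feedback genes TNFAIP3 and BIRC3.

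NF-kappaB is a family of dimeric transcription factors that inhibitor proteins of the I-kappaB group hold in the cytoplasm until a receptor signal has the inhibitor degraded. In the canonical branch RELA and REL pair with the p50 product of NFKB1, and in the non-canonical branch the kinase encoded by MAP3K14 drives processing of the NFKB2 product, which pairs with RELB. Several genes of the system, among them NFKBIA, TNFAIP3 and BIRC3, are themselves switched on by NF-kappaB, so that their mRNA is commonly read as a sign of its activity.

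RNA was sequenced from KELLY, an established human neuroblastoma line. Cells of 3 lines were kept for 72 h in doxycycline or in DMSO, with 3 libraries per line and condition. The EV line holds the empty F1HUTG vector, and the sh4 and shAMB lines hold inducible hairpins against RUNX1T1, which encodes a transcriptional co-repressor. The other 8 libraries are KELLY tumors from immunocompromised mice, 4 of genotype WT on control food and 4 labelled RUNX1T1 KO on doxycycline food. In that second set diet and labelled genotype cannot be told apart. The label names a knock-out where the study describes an inducible hairpin, and the labels do not give the hairpin. In the paper, KELLY xenografts carried the inducible hairpin built on an Ambion siRNA sequence, and the mice received doxycycline or control food. By that account both tumor groups hold the same hairpin and differ in diet. Whether shAMB names this hairpin is not said in the labels. The lines differ in their vector, and whether the libraries of a group came from separate cultures is not stated, so that p-values measure the spread between these libraries. Column heads of the culture tables say Neg or Pos, taken here to mean without and with doxycycline, and each direction in culture depends on this.

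In the GENCODE annotation of GRCh38 the 10 genes lie apart from each other, on 7 chromosomes. RELA is at chr11:65653599-65663090 and BIRC3 at chr11:102317484-102339403. RELB (chr19:45001461-45038192) and NFKBIB (chr19:38899700-38908893) share chromosome 19, and NFKBIE (chr6:44258166-44265788) and TNFAIP3 (chr6:137867214-137883314) share chromosome 6. REL is at chr2:60881491-60931612, NFKB1 at chr4:102501330-102617302, NFKB2 at chr10:102394110-102402524 and NFKBIA at chr14:35401079-35404749. Of the exonic bases of REL, 33.3% are shared with an unnamed gene of the same orientation, which leaves the REL level uncertain to that extent. RELA, NFKBIB, TNFAIP3 and BIRC3 shared 1.47% to 1.89% of exonic bases with a gene on the opposite strand.

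Promoter windows of RefSeq (GRCh38.p14, 250 bases before to 50 bases after a transcript start) were found for 8 of the 10 genes. They were searched on both strands for the kappaB consensus, the site that NF-kappaB dimers bind. It occurred in a window of 7 of these 8 genes, against 13.3% of 27305 genes with a window, and in neither of the 2 windows of RELA. The genes were chosen as members of the NF-kappaB system, some of them its known targets, so that this share describes the choice. Windows of 4 genes are printed because the results below turn on REL, TNFAIP3 and BIRC3 and because NFKBIA is the classical target. Capitals mark each match, and overlapping matches form 1 run of capitals.
REL, chr2:60881324-60881623, plus strand: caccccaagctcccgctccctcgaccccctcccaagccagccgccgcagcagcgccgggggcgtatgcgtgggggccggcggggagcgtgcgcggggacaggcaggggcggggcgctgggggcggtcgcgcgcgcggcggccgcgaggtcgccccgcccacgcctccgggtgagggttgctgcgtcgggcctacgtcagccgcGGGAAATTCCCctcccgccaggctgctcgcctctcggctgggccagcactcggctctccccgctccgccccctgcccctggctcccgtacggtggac
NFKBIA, chr14:35404700-35404999, minus strand: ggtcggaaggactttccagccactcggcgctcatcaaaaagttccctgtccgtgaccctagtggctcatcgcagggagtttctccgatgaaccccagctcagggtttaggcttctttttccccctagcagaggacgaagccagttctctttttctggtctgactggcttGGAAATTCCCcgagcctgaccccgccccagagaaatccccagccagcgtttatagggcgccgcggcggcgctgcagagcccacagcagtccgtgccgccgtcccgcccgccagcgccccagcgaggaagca
TNFAIP3, chr6:137867009-137867308, plus strand: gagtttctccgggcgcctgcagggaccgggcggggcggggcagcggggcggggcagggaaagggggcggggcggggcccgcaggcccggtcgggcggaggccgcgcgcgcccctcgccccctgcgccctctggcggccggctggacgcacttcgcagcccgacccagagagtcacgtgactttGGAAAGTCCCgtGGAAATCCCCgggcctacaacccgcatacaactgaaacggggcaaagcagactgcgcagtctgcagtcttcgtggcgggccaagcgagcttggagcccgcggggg
BIRC3, chr11:102317234-102317533, plus strand: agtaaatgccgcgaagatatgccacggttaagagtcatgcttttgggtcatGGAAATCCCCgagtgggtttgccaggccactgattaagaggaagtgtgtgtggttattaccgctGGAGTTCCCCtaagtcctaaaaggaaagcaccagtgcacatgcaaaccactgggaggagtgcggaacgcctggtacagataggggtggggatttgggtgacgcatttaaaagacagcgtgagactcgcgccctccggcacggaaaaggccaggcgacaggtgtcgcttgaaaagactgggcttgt
TNFAIP3 held a pair of matches, starting at positions −67 and −55 from the transcript start (GGAAAGTCCC and GGAAATCCCC). BIRC3 held 2 matches farther upstream, at −199 and −135 (GGAAATCCCC and GGAGTTCCCC). NFKBIA had 1 match, GGAAATTCCC, at −81. In REL the sequence reads as a match on both strands, offset by 1 base, at −47 and −46. NFKB1 carried GGGAATTTCC at −49, NFKB2 carried 5 matches over 2 windows and NFKBIB 3 matches in 1 window. A match describes letters in the window and is not evidence that a factor was bound.

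Total expected counts were 35115915 to 54736733 per library in culture and 47346063 to 62378060 in the xenografts. RUNX1T1 itself averaged 34.3 ± 0.898 CPM (SD, n = 3; CPM are counts scaled to library size after TMM normalization) in sh4 cells with DMSO and 31.8 ± 1.94 with doxycycline, 40.9 ± 1.04 and 42.5 ± 1.41 in shAMB cells, 41.9 ± 2.41 and 37.6 ± 1.05 in EV cells, and 35.5 ± 5.51 and 30.2 ± 5.19 (n = 4) in control xenografts and those labelled KO. None of these 4 differences passed the edgeR test (adjusted p = 0.117, 0.378, 0.672 and 0.229). The paper reports lower RUNX1T1 levels after doxycycline in KELLY cells with each of its hairpins. It also reports loss of RUNX1T1 by immunostaining in KELLY tumors excised early in treatment. The libraries measure mRNA, so that these tests cannot decide whether RUNX1T1 protein was lowered. Uninduced sh4 cells were lower in RUNX1T1 than uninduced EV cells (log2 fold change −0.29, edgeR adjusted p = 0.0144), a call lost with trends on GC content and gene length removed from each library (−0.17, adjusted p = 0.0709), with only the libraries compared (adjusted p = 0.217) and without EV library 1 or sh4 library 1 or 2 (adjusted p = 0.106, 0.0733 and 0.096). The RUNX1T1 response to doxycycline in shAMB was above that in EV (0.21, adjusted p = 0.0353), a call lost with RLE scaling (adjusted p = 0.143), with no filter, with DESeq2, with the replicate number as a block and without any 1 of 8 libraries (adjusted p up to 0.182). The sh4 response of RUNX1T1 did not differ from that in EV (0.04, edgeR adjusted p = 0.686). With these trends removed, RUNX1T1 was lower with doxycycline in sh4 (log2 fold change −0.28, edgeR adjusted p = 0.000371) and in the xenografts labelled KO (−0.30, adjusted p = 0.0301). The sh4 value there compares sh4 cells with and without doxycycline and is not set against the EV response. Libraries differed in how counts ran with the GC content of genes: the slope was between −0.35 and −0.18 log2 units per 10 percentage points in the 3 shAMB libraries with DMSO and between 0.11 and 0.33 in the 3 with doxycycline. In sh4 it was 0.30, 0.13 and −0.03 with DMSO and −0.22, −0.13 and 0.28 with doxycycline, and in the xenografts it spread from −0.31 to 0.32 within the groups. By GC content averaged over the annotated transcripts of a gene, RELA, RELB, NFKB2, NFKBIB and NFKBIE are GC-rich (60.8% to 64.5%). REL and BIRC3 are GC-poor (40.2% and 36.9%). Values with GC and length trends removed are therefore given beside the results of these genes where they change a call. Neuroblast markers such as CHGA were abundant in all libraries, with a summed level of 10 markers between 2278 and 4046 CPM.

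Per kilobase of gene length, NFKBIA was the most abundant of the 10 mRNAs in each group, between 17.9 ± 1.5 CPM per kb in control xenografts and 22.5 ± 0.94 in sh4 cells with doxycycline. RELA followed with 10.3 to 19.7 and NFKB1 with 7.17 to 9.78. NFKBIB lay between 2.55 and 6.70, REL between 1.76 and 3.01, NFKBIE between 1.70 and 2.83 and NFKB2 between 0.719 and 1.88. The 3 remaining genes were scarce: BIRC3 at 0.0619 to 0.641, TNFAIP3 at 0.0426 to 0.274 and RELB at 0.0113 to 0.251. RELA and NFKBIA did not overlap in level in the xenografts, whereas in sh4 cells with DMSO their ranges overlapped (means of 19.7 and 22.4). In bulk RNA, fewer cells that express a gene and less RNA per cell cannot be told apart.

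**Figure D1:**
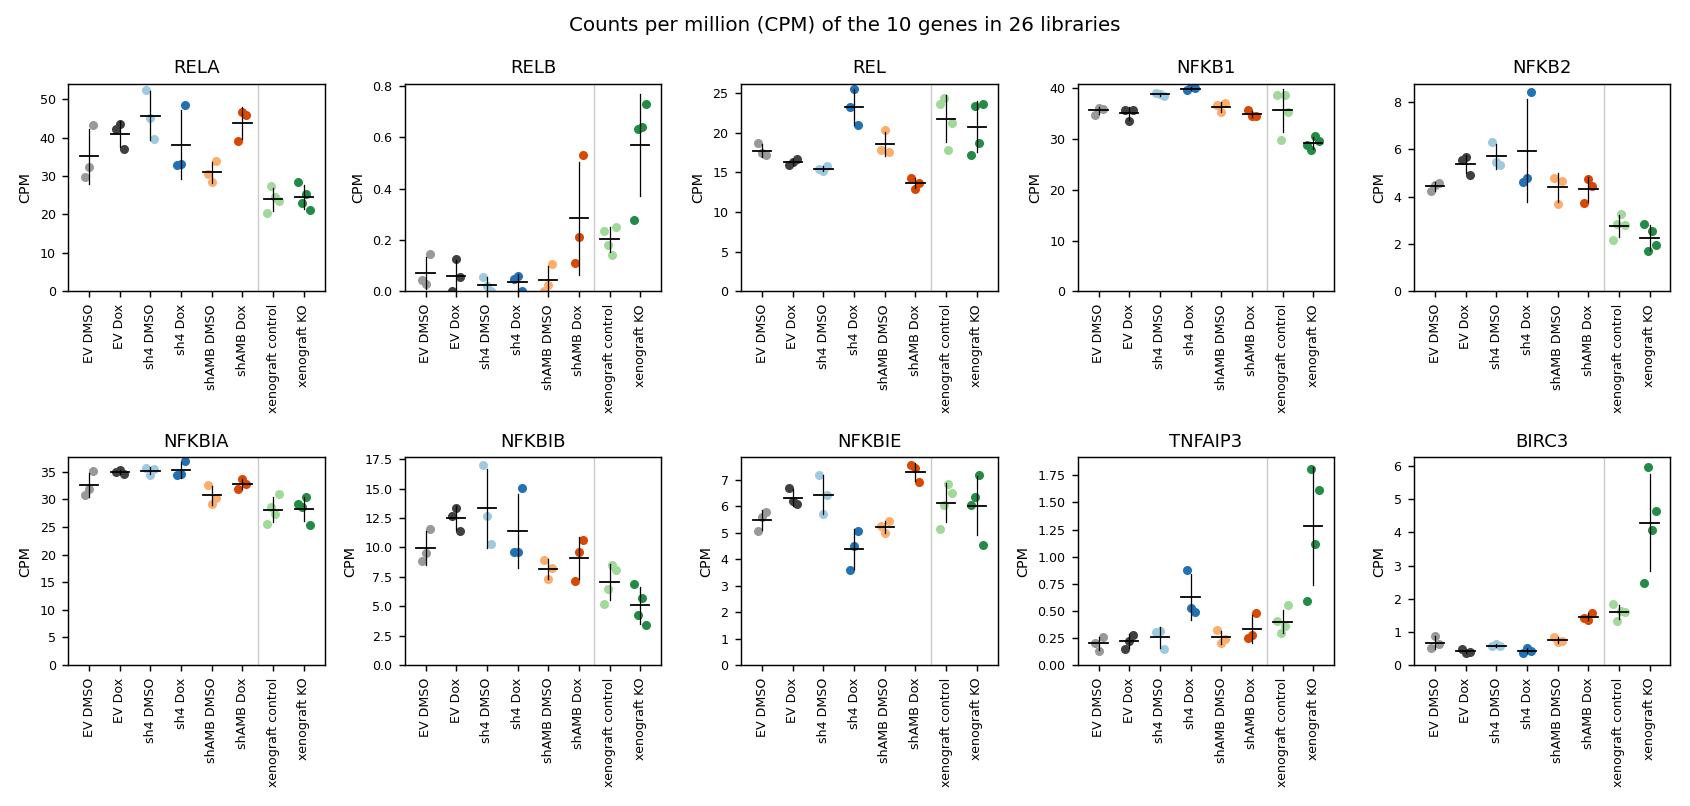
Level of each gene in CPM (vertical axis, linear from 0, scale differing between panels) in the 26 libraries, grouped along the horizontal axis by line and condition. Points are libraries, horizontal bars are group means and vertical bars 1 SD. RELB stays at or below 0.144 CPM in culture outside shAMB cells with doxycycline, and the xenografts labelled KO lie above their controls for RELB, TNFAIP3 and BIRC3.

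The first question was whether doxycycline alone moved these genes. In the EV line none of the 9 genes tested changed. Across all 14905 genes tested, 0.0134% were higher and 0.0805% lower at an adjusted p under 0.05. By the unadjusted edgeR p, 1 of the 9 was under 0.05, and DESeq2 also called 0. That gene was BIRC3, which read 0.502, 0.890 and 0.634 CPM with DMSO and 0.476, 0.377 and 0.393 with doxycycline, so that the groups did not overlap (log2 fold change −0.69, 95% confidence interval −1.15 to −0.22, edgeR adjusted p = 0.672). The other 8 fitted differences were between −0.12 and 0.32. RELB failed the filter on low counts in culture and is not among the 9.

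Nor did the uninduced hairpin lines differ from the uninduced EV line in any of the 9 genes by the edgeR test. For sh4 the background was 0.597% higher and 0.523% lower, and for shAMB it was 1.11% and 0.416%. At an unadjusted p under 0.05 there were 3 genes in sh4, namely RELA, REL and NFKB1, and 0 in shAMB, and DESeq2 called 0 in both. Their differences in sh4 were 0.38 for RELA, −0.20 for REL and 0.12 for NFKB1 on the log2 scale. The direction of REL in sh4 turned to 0.02 with the GC and length trends removed.

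With doxycycline, the sh4 line had 2 of 9 genes higher (REL and TNFAIP3) and 1 lower (NFKBIE), where 22.9% of all genes tested were higher and 18% lower. The shAMB line had 3 of 9 higher (RELA, NFKBIE and BIRC3) and 1 lower (REL), where 37.6% were higher and 28.4% lower. The members' shares were near or below these backgrounds in both lines. REL and NFKBIE were called in both lines in opposite directions, NFKBIE in shAMB only before GC and length trends were removed. Removing GC and length trends kept the 3 sh4 calls but, in shAMB, took away RELA and NFKBIE, whose fitted values became −0.09 and −0.07, and added NFKB1 and NFKBIA as higher and NFKB2 and NFKBIB as lower, so that the shAMB counts went from 3 higher and 1 lower to 3 and 3. Over all 14905 genes, 6872 were then higher and 3559 lower in shAMB, and 3378 and 4057 in sh4. Leaving out sh4 library 3 with doxycycline, which had the highest GC slope of its group, raised the sh4 count from 3 to 5 by adding RELA (−0.47) and NFKBIB (−0.48) as lower. Over all genes tested the called share rose as well, from 40.9% to 53.4%, with lower genes going from 2681 to 4082.

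**Figure D2:**
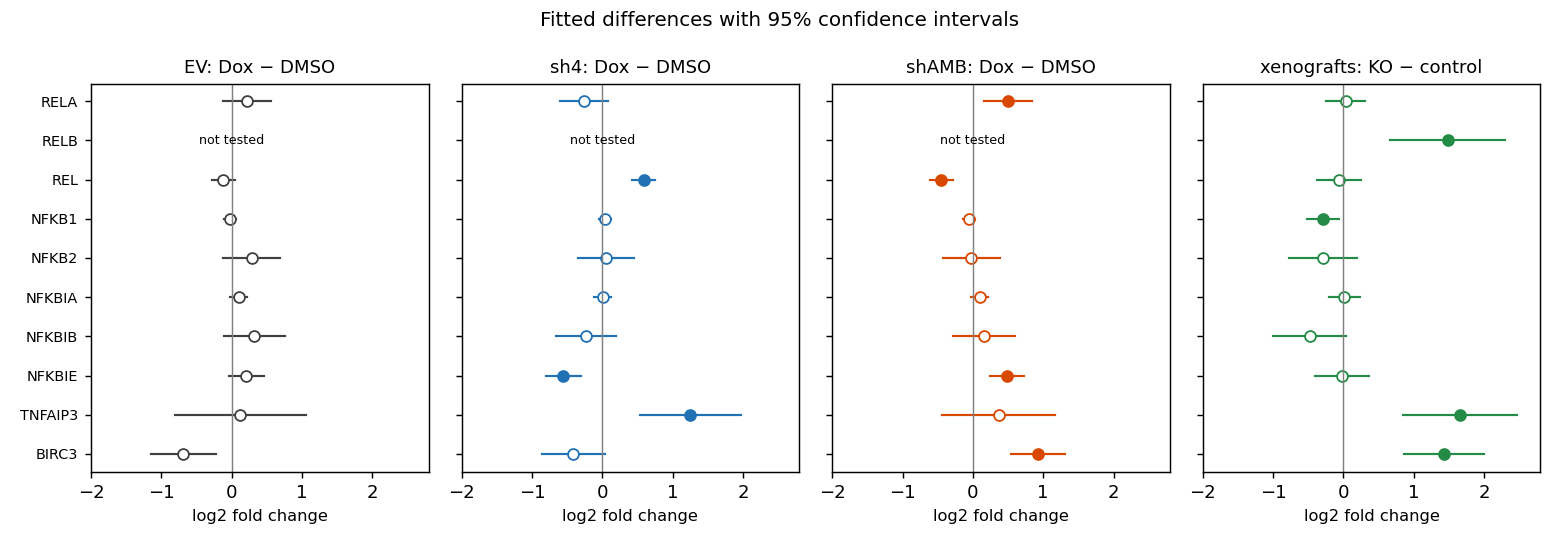
Fitted log2 fold change (horizontal axis) of each gene with its 95% confidence interval in the 3 lines and in the xenografts. Filled circles have an edgeR adjusted p under 0.05, and RELB did not pass the filter in culture. REL lies at 0.59 in sh4 and −0.45 in shAMB, while the GC-rich RELA and NFKBIE, at 0.50 and 0.48 in shAMB, turn to −0.09 and −0.07 there with GC and length trends removed.

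Among the subunits, REL, the c-Rel subunit best known from lymphocytes, gave the clearest contrast between hairpins. In sh4 cells it read 15.5, 15.2 and 15.8 CPM with DMSO and 23.3, 25.6 and 21.0 with doxycycline. In shAMB cells it read 17.8, 20.3 and 17.6 with DMSO and 14.2, 12.9 and 13.7 with doxycycline. Neither line showed overlap between its groups, and induced sh4 cells were above every other culture group. The log2 fold change was 0.59 (SE 0.08, edgeR adjusted p = 1.47e-05) in sh4 and −0.45 (SE 0.08, adjusted p = 0.000109) in shAMB.

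Against the change in EV cells (18.7, 17.4 and 17.2 CPM with DMSO, 15.9, 16.3 and 16.7 with doxycycline), the REL response was 0.71 higher in sh4 on the log2 scale (edgeR adjusted p = 0.00014) and 0.32 lower in shAMB (−0.32, adjusted p = 0.0237). The difference between the hairpins was 1.04 (95% confidence interval 0.80 to 1.27, adjusted p = 1.05e-06). With GC and length trends removed, the REL values fell to 0.40 in sh4 (adjusted p = 8.02e-05) and −0.21 in shAMB (adjusted p = 0.0106), the difference from EV in shAMB no longer passed (−0.23, adjusted p = 0.0545), and the difference between hairpins was 0.62 (adjusted p = 2.67e-05). The contrast of shAMB with EV was also lost when any 1 of 4 libraries was left out, with adjusted p up to 0.0691, namely EV with DMSO 3, EV with doxycycline 3, shAMB with DMSO 2 and shAMB with doxycycline 2. Over the 9 genes, 1 was higher and 1 lower in sh4 minus EV, beside 17.8% and 14.7% of all genes, 1 and 1 in shAMB minus EV, beside 23.7% and 21.7%, and 1 and 3 in sh4 minus shAMB, beside 27.8% and 33.1%. With the trends removed these counts were 1 and 0, 1 and 2, and 3 and 2, so that the balance in sh4 minus shAMB turned. Over all 14905 genes they were then 2172 and 3810, 4939 and 3247, and 3204 and 6338. NFKB2 and NFKBIB then passed in shAMB minus EV (−0.75 and −0.70, adjusted p = 0.000278 and 2.69e-05), and NFKB2, NFKBIB and NFKB1 in sh4 minus shAMB (0.85, 0.65 and −0.28, adjusted p = 5.1e-05, 3.55e-05 and 0.0309). The comparisons with EV share the EV libraries.

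RELA, the p65 subunit that carries the transactivation domain of the canonical dimer, read 30.5, 28.4 and 34.0 CPM in shAMB cells with DMSO and 39.0, 46.6 and 45.9 with doxycycline, with no overlap (log2 fold change 0.50, SE 0.16, edgeR adjusted p = 0.0117). In sh4 cells it read 52.4, 45.1 and 39.6 with DMSO and 32.9, 33.1 and 48.5 with doxycycline, which overlap (−0.26, adjusted p = 0.204). Across the 18 culture libraries the RELA level moved with the GC slope. The 6 libraries with the most negative slopes held 28.4 to 34.0 CPM whatever their line or condition, and the 4 with slopes from 0.24 to 0.33 held 45.9 to 52.4. With the trends removed, the shAMB difference was −0.09 (adjusted p = 0.135), the sh4 difference −0.06 (adjusted p = 0.341), and the difference between the hairpins went from −0.76 (adjusted p = 0.00849) to 0.03 (adjusted p = 0.748). The shAMB call was also lost without the second shAMB library with DMSO (0.44, adjusted p = 0.051). In shAMB the slope was negative in every library with DMSO and positive in every library with doxycycline, so that slope and induction cannot be told apart. Removing the trends there may also remove a response that runs with GC content. What part of the RELA difference GC content accounts for was not tested.

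**Figure D3:**
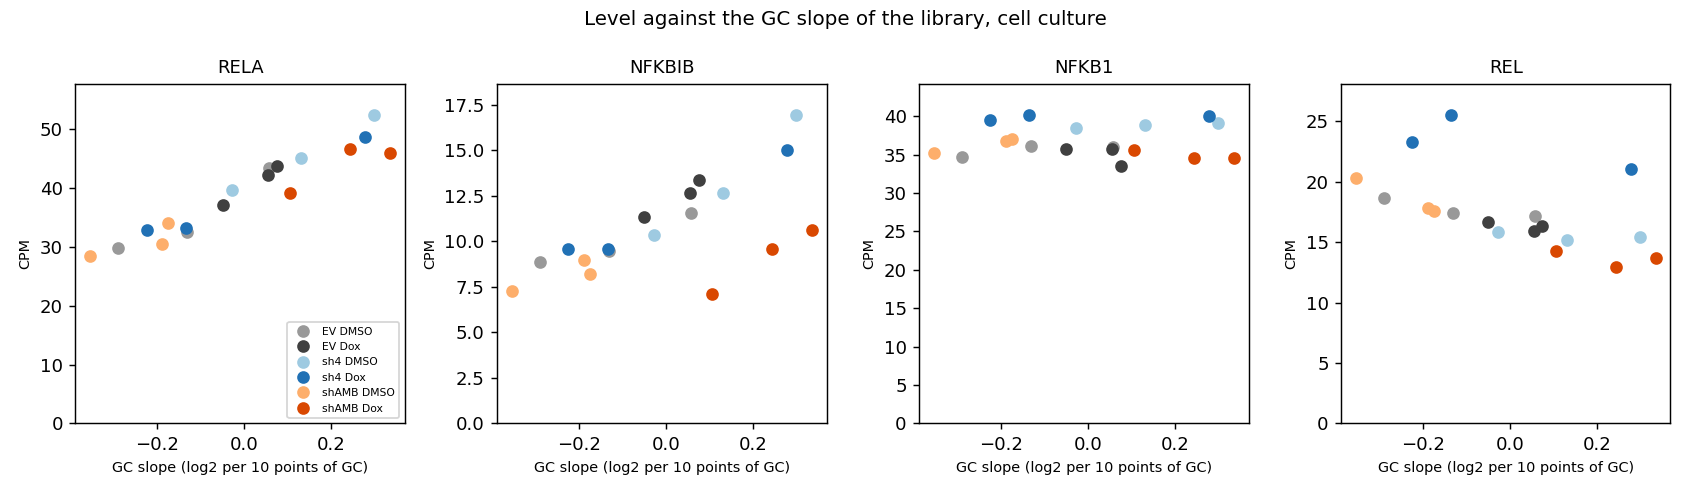
Level in CPM (vertical axis, from 0) of 4 genes against the GC slope of the library (horizontal axis, log2 units per 10 percentage points of GC) in the 18 culture libraries, colored by line and condition. The 2 GC-rich genes RELA and NFKBIB are high where the slope is high, except NFKBIB in the 3 shAMB libraries with doxycycline, NFKB1 stays between 33.6 and 40.2, and REL stands apart in the 3 sh4 libraries with doxycycline.

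NFKB1, which encodes the p105 precursor of p50, was the steadiest of the genes in culture, with libraries between 33.6 and 40.2 CPM. Its log2 fold change was 0.04 (95% confidence interval −0.05 to 0.13) in sh4 and −0.06 (−0.15 to 0.03) in shAMB, so that changes as large as those of REL lay outside both intervals. Under 3 other ways of scaling or fitting, the shAMB value passed as a decrease of 0.13 to 0.14 on the log2 scale, and with GC and length trends removed it passed as an increase of 0.18 (edgeR adjusted p = 0.0412), so that no direction is given for it. NFKB2, which encodes the p100 precursor of p52, read 4.81, 3.69 and 4.68 CPM with DMSO and 3.72, 4.76 and 4.45 with doxycycline in shAMB (log2 fold change −0.03, 95% confidence interval −0.43 to 0.38, edgeR adjusted p = 0.91). With the trends removed its value in shAMB was −0.65 (adjusted p = 2.01e-05). In sh4 its library 3 with doxycycline, at 8.44 CPM, stood above the other 2, at 4.61 and 4.81.

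RELB, the non-canonical partner of p52, was at the limit of detection. It had 0 to 5 counts in each of the 15 culture libraries outside induced shAMB cells. In induced shAMB cells it had 5, 12 and 23 counts (0.112, 0.210 and 0.531 CPM), against 0, 1 and 4 with DMSO. No fold is given, since the DMSO libraries lie near the 3 counts that a count of 0 allows. With no filter on low counts the edgeR test called RELB higher in shAMB (adjusted p = 0.0233), but not its response against that of EV (adjusted p = 0.179) or sh4 (adjusted p = 0.356).

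Of the inhibitors, NFKBIA, which encodes I-kappaB alpha and is induced by NF-kappaB in a rapid feedback loop, read between 29.2 and 37.0 CPM in all 18 culture libraries. Its fitted difference was 0.01 (95% confidence interval −0.11 to 0.13) in sh4 and 0.09 (−0.03 to 0.21) in shAMB, where it passed only with GC and length trends removed (0.16, edgeR adjusted p = 0.00409). NFKBIB, which encodes I-kappaB beta, read 17.0, 12.7 and 10.3 CPM with DMSO and 9.59, 9.60 and 15.04 with doxycycline in sh4. In shAMB it read 8.97, 7.28 and 8.21 with DMSO and 7.12, 9.58 and 10.6 with doxycycline. Both lines showed overlap and neither difference passed (−0.23 and 0.16, edgeR adjusted p = 0.381 and 0.505), while with the trends removed the sh4 value was 0.07 and the shAMB value −0.58 (adjusted p = 2.44e-06).

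NFKBIE, which encodes I-kappaB epsilon, read 7.19, 5.70 and 6.41 CPM with DMSO and 3.59, 4.52 and 5.06 with doxycycline in sh4, with no overlap (log2 fold change −0.55, SE 0.12, edgeR adjusted p = 0.0012). In shAMB it read 5.25, 4.99 and 5.43 with DMSO and 7.55, 7.45 and 6.92 with doxycycline, again with no overlap but in the opposite direction (0.48, SE 0.12, adjusted p = 0.00167). The hairpins differed by −1.04 (95% confidence interval −1.38 to −0.69, adjusted p = 6.71e-05), and sh4 differed from EV by −0.76 (adjusted p = 0.00238). With GC and length trends removed, the sh4 decrease was smaller and still passed (−0.37, adjusted p = 0.0121), the shAMB value was −0.07 (adjusted p = 0.571), and neither the difference between hairpins (−0.30, adjusted p = 0.117) nor that of sh4 from EV (−0.40, adjusted p = 0.0571) passed.

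**Figure D4:**
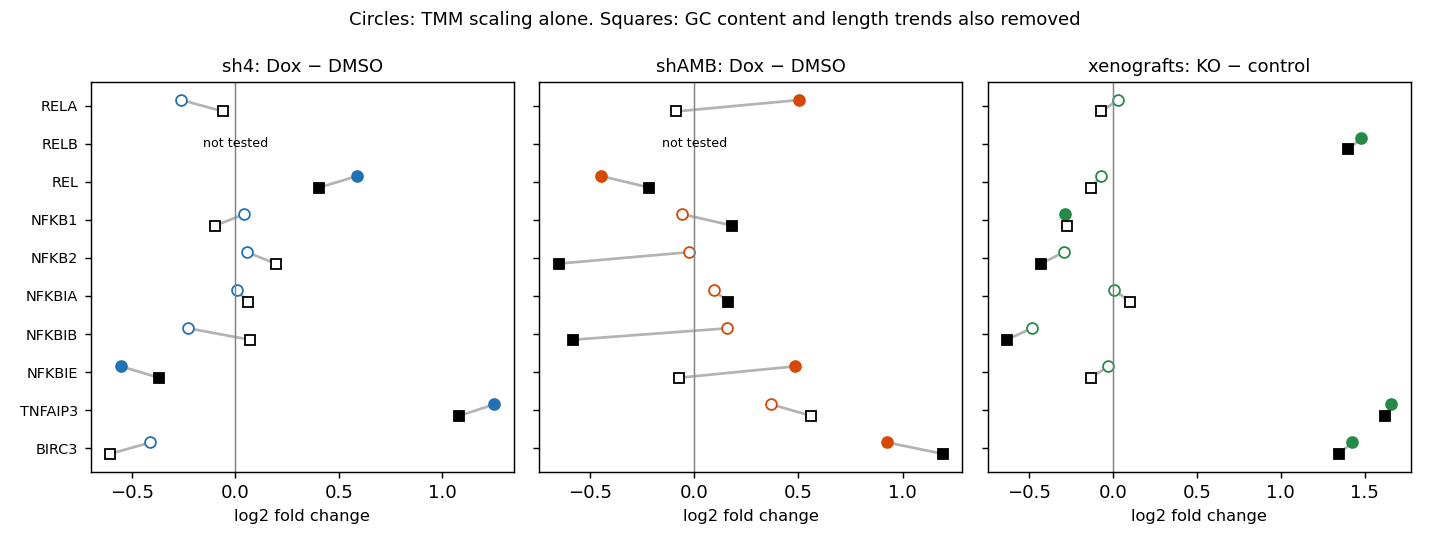
Log2 fold change (horizontal axis) of each gene with TMM scaling alone (circles) and with GC content and length trends also removed (squares). Filled symbols have an edgeR adjusted p under 0.05. The squares of RELA and NFKBIE in shAMB lie near 0, at −0.09 and −0.07, and those of NFKB2 and NFKBIB at −0.65 and −0.58, while TNFAIP3, BIRC3 and RELB in the xenografts hardly move.

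Of the feedback genes, TNFAIP3 was called in sh4 and BIRC3 in shAMB, and the difference between the hairpins passed for BIRC3 alone. TNFAIP3, which encodes the ubiquitin-editing enzyme A20 that shuts off signaling to NF-kappaB, had 16, 16 and 6 counts in sh4 cells with DMSO and 37, 27 and 20 with doxycycline. In CPM these are 0.308, 0.315 and 0.147 against 0.874, 0.526 and 0.491, with no overlap (log2 fold change 1.25, SE 0.34, edgeR adjusted p = 0.00712). In shAMB it had 13, 8 and 9 counts with DMSO and 11, 16 and 21 with doxycycline, which overlap (0.37, 95% confidence interval −0.43 to 1.17). The difference between the hairpins was not past the threshold (0.88, 95% confidence interval −0.20 to 1.97, adjusted p = 0.146), nor was that of sh4 from EV (1.13, adjusted p = 0.133). The sh4 change was 1.08 with GC and length trends removed (adjusted p = 0.0119).

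BIRC3, which encodes the ubiquitin ligase cIAP2 of the TNF receptor complex, had 35, 27 and 27 counts in shAMB cells with DMSO and 64, 78 and 68 with doxycycline. In CPM these are 0.862, 0.702 and 0.722 against 1.43, 1.36 and 1.57, with no overlap (log2 fold change 0.93, SE 0.18, edgeR adjusted p = 0.000368). In sh4 it read 0.577, 0.629 and 0.563 with DMSO and 0.378, 0.526 and 0.417 with doxycycline, with no overlap and no call (−0.41, adjusted p = 0.167). The hairpins differed by −1.34 (95% confidence interval −1.93 to −0.75, adjusted p = 0.000746), and shAMB differed from EV by 1.61 (adjusted p = 0.000256). The 1.61 includes the uncalled fall of BIRC3 in EV (−0.69). All 3 calls also passed in each alternative fit, and the shAMB change was 1.19 with GC and length trends removed.

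In the xenografts the question was which of the genes differed between tumors labelled KO and controls. Of the 10 genes, all tested there, 3 were higher (TNFAIP3, BIRC3 and RELB) and 1 lower (NFKB1), where 21.2% of all 15960 genes tested were higher and 19.9% lower. The 3 that were higher are the 3 scarcest of the set, and none of the 3 inhibitors passed, although NFKBIB did in 2 of the alternatives. All 3 increases passed in each of 13 alternative fits.

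BIRC3 had 86, 59, 91 and 95 counts in the controls and 142, 340, 262 and 242 in those labelled KO. In CPM these are 1.84, 1.33, 1.63 and 1.59 against 2.48, 5.98, 4.08 and 4.65, with no overlap (log2 fold change 1.43, SE 0.26, edgeR adjusted p = 0.0014). TNFAIP3 read 0.405, 0.294, 0.358 and 0.552 CPM in the controls and 0.593, 1.81, 1.12 and 1.61 in those labelled KO, with no overlap (1.66, SE 0.37, adjusted p = 0.00448). RELB had 11, 8, 8 and 15 counts against 16, 36, 41 and 38, again with no overlap (1.48, SE 0.37, adjusted p = 0.00855). Tumor 1 labelled KO was the lowest of its group for each of the 3 genes and still lay above the highest control. RELB passed the filter only through the tumors labelled KO, so that its passing is not independent of its difference.

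NFKB1 read 38.8, 29.9, 38.6 and 35.3 CPM in the controls and 28.9, 27.9, 30.7 and 29.6 in those labelled KO. The groups overlap through the second control (log2 fold change −0.28, 95% confidence interval −0.51 to −0.06, edgeR adjusted p = 0.0465). The call was lost in 8 of 13 alternatives, with adjusted p up to 0.127, among them removing GC and length trends (−0.27, adjusted p = 0.0502) and leaving out control 1, 3 or 4 or KO tumor 1, 2 or 4. NFKBIB read 5.23, 6.50, 8.54 and 8.10 against 6.90, 4.22, 5.75 and 3.44 and did not pass (−0.48, adjusted p = 0.131), but passed as lower with GC and length trends removed (−0.63, adjusted p = 0.00168) and without KO tumor 1 (−0.67, adjusted p = 0.0348). NFKB2 also passed as lower only with the trends removed (−0.43, adjusted p = 0.0496, against −0.29 and 0.313). RELA, REL, NFKBIA and NFKBIE had fitted differences between −0.07 and 0.03.

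Markers of other cells were read beside these increases. The summed level of 10 blood cell markers was 1.24, 1.60, 1.70 and 1.46 CPM in the controls and 3.77, 2.55, 2.71 and 2.35 in those labelled KO, with no overlap. Most of it was CD68 (means 0.949 and 1.40 CPM), CSF1R and CD79A. In culture, where no host cells are present, the sum was 0.641 to 0.776 CPM in shAMB cells with DMSO. With doxycycline it was 1.59 to 2.35, with no overlap, led by CD68 (means 0.613 and 1.53 CPM). In EV and sh4 cells the ranges with and without doxycycline overlapped. CD79A, a component of the B cell receptor, had 4, 5, 4 and 10 counts in the controls and 60, 42, 35 and 19 in those labelled KO, with no overlap, while PTPRC, the pan-leukocyte marker, had at most 10 counts in any tumor, and CD3E and MS4A1 were at 0 in all tumors labelled KO. KO tumor 1, with the lowest TNFAIP3, BIRC3 and RELB of its group, had the highest blood marker sum. The 6 endothelial markers summed to 8.86 to 15.03 CPM in controls and 10.9 to 16.3 in those labelled KO, and the 8 fibroblast markers to 65.1 to 103 and 97.2 to 148, most of it PDGFRB (means 58.9 and 89.0 CPM), which also averaged 33.8 to 59.1 CPM in the 5 culture groups where it led the list. How reads of the mouse host were treated is not given in the sources used here, and the part of other cells in these increases was not tested.

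Other genes of the pathway were taken from 5 lists. Their counts are to be read beside the shares of all genes tested, which were 22.9% higher and 18% lower in sh4, 37.6% and 28.4% in shAMB, and 21.2% and 19.9% in the xenografts. Counts with GC and length trends removed have another background. There 3378 of 14905 genes were higher and 4057 lower in sh4, and 6872 and 3559 in shAMB. In the xenografts 4135 of 15960 were then higher and 3919 lower. Among 30 NF-kappaB targets, 14 were tested in culture and 15 in the xenografts. In sh4, 6 were higher and 2 lower, with a median log2 fold change of 0.20 beside −0.00462 over all genes. In shAMB, 7 were higher and 4 lower (median 0.39 beside 0.10), and in the xenografts 7 higher and 0 lower (median 0.84 beside 0.02), with 8 of 15 not called. In EV cells 0 of 14 changed by the edgeR test. With GC and length trends removed the counts were 7 and 3 in sh4, 8 and 1 in shAMB, and 9 and 0 in the xenografts.

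TNFAIP2, a TNF-inducible gene, was 1.56 CPM with DMSO and 4.56 with doxycycline in sh4 (log2 fold change 1.54, edgeR adjusted p = 2.63e-05), 1.32 and 7.003 in shAMB (2.41, adjusted p = 1.24e-07), and 1.79 and 9.05 in control and KO xenografts (2.33, adjusted p = 9.52e-05). LIF, which encodes an IL-6 family cytokine, rose by 0.95, 1.54 and 1.57 on the log2 scale in the same order (adjusted p = 0.000362, 1.72e-06 and 0.000344). TRAF1, an adaptor of TNF receptors, went from 1.37 to 3.61 CPM in sh4 (1.40, adjusted p = 6.75e-07). IER3, an early response gene, rose by 1.68 in shAMB (adjusted p = 2.73e-07) and by 2.74 in the xenografts (adjusted p = 0.000683). For these 4 genes the calls named here also passed with GC and length trends removed.

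**Figure D5:**
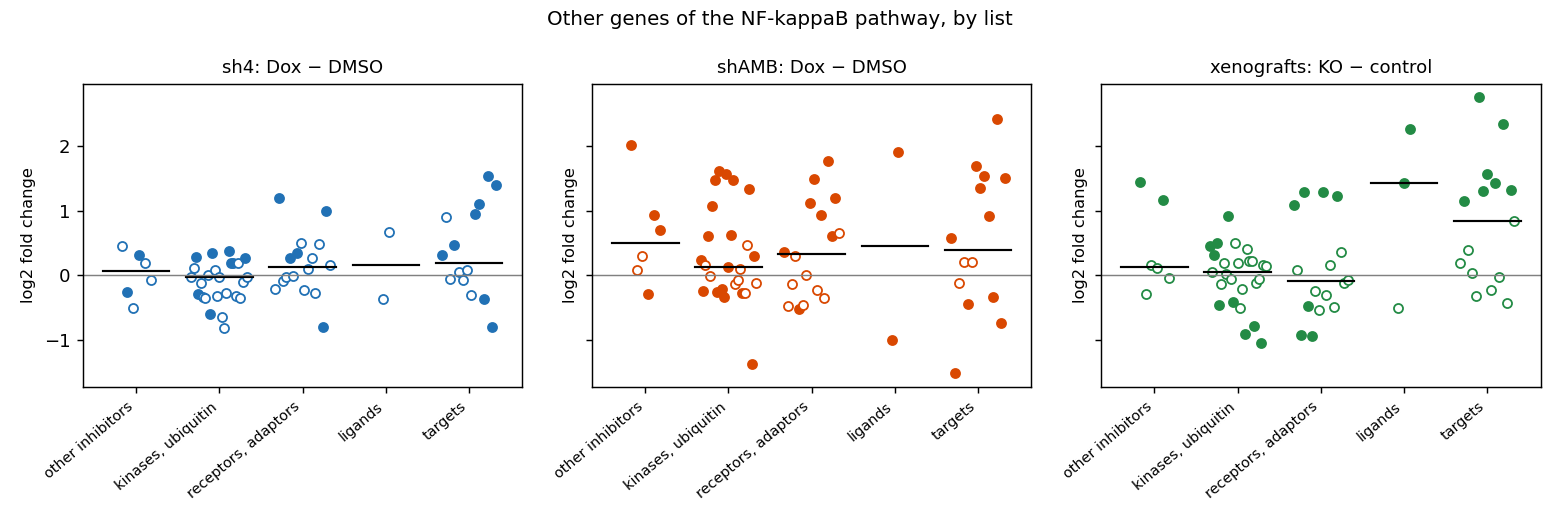
Log2 fold change (vertical axis) of each tested gene in 5 further lists of the pathway, in sh4, shAMB and the xenografts. Filled circles have an edgeR adjusted p under 0.05, and black bars are list medians. In the xenografts 7 of 15 targets were higher and 0 lower, while kinases and ubiquitin genes lie on both sides of 0.

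Among 26 kinases and ubiquitin enzymes of the pathway, 25 were tested. In sh4, 6 were higher and 2 lower, in shAMB 11 and 6, and in the xenografts 4 and 5, with medians of −0.02, 0.13 and 0.05 beside −0.00462, 0.10 and 0.02 over all genes. These shares of 25 lie near those of all genes, apart from the few lower genes in sh4. With GC and length trends removed these counts were 4 and 7, 15 and 4, and 5 and 6, so that the balance in sh4 turned. It also turned in sh4 over all genes tested, from 3410 higher and 2681 lower to 3378 and 4057. MAP3K14, the NIK kinase of the non-canonical branch, fell in sh4 (10.5 to 7.01 CPM, log2 fold change −0.59, edgeR adjusted p = 0.0336) and rose in shAMB (6.30 to 19.2, 1.61, adjusted p = 7.77e-06) and in the xenografts (6.92 to 13.1, 0.92, adjusted p = 0.00703). The sh4 call of MAP3K14 was lost with the replicate number as a block (adjusted p = 0.0926), with only the sh4 libraries in the fit (adjusted p = 0.13) and without any 1 of 4 libraries, both uninduced 1 and 2 and induced 1 and 2 (adjusted p up to 0.139). TRAF3, which targets the MAP3K14 product for degradation, fell in the xenografts from 24.5 to 11.9 CPM (−1.04, adjusted p = 3.65e-05), and TAB1, a partner of the TAK1 kinase, from 21.6 to 11.5 (−0.91, adjusted p = 0.0033).

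In sh4, TAB2 and MAP3K7, which encode a TAK1 partner and TAK1 itself, rose by 0.37 and 0.35 on the log2 scale (edgeR adjusted p = 0.00074 and 0.00147), and by 0.23 and 0.19 with GC and length trends removed (adjusted p = 3.47e-05 and 0.00023). In shAMB, RBCK1, a subunit of the linear ubiquitin ligase, rose by 1.56 (2.91 to 8.62 CPM, adjusted p = 3.15e-06) and IKBKG, the NEMO scaffold of the I-kappaB kinase, by 1.48 (2.75 to 7.66 CPM, adjusted p = 0.000394). These shAMB increases were 0.96 and 0.84 with GC and length trends removed and still passed.

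Of 21 receptors and adaptors, 16 were tested. In sh4 4 were higher and 1 lower, in shAMB 7 and 1, and in the xenografts 4 and 3, with medians of 0.13, 0.33 and −0.09. The shares of higher genes among the 16 lie near those of all genes in the 3 comparisons. The counts were 7 and 1, 6 and 2, and 5 and 4 with GC and length trends removed. TNFRSF1A, the main TNF receptor, fell in sh4 from 23.0 to 13.3 CPM (log2 fold change −0.79, edgeR adjusted p = 9.7e-06), and TNFRSF1B, the other TNF receptor, rose there from 2.06 to 4.16 (1.00, adjusted p = 0.0116) and in shAMB from 1.71 to 3.92 (1.19, adjusted p = 0.00243). The sh4 call of TNFRSF1B was lost with the replicate number as a block (adjusted p = 0.0657), with only the sh4 libraries in the fit (adjusted p = 0.0729) and without the sh4 library 3 with doxycycline, where its value was 0.62 (adjusted p = 0.0549), and in shAMB its value was 0.51 with GC and length trends removed (adjusted p = 0.0122). MYD88, the adaptor of Toll-like and IL-1 receptors, rose in sh4 by 0.35 (adjusted p = 0.0131), a call lost with only the sh4 libraries in the fit (adjusted p = 0.0633) and without the sh4 library 3 with DMSO (0.29, adjusted p = 0.056). TNFRSF12A, the receptor of TWEAK, and TICAM1, an adaptor of Toll-like receptors, rose in shAMB by 1.76 and 1.49 (adjusted p = 0.000349 and 0.000107), and by 1.01 and 0.75 with GC and length trends removed. In the xenografts IRAK2 rose by 1.28 (adjusted p = 0.000975), and LTBR and IRAK1, a lymphotoxin receptor and a kinase of IL-1 signaling, fell by 0.93 and 0.92 (−0.93 and −0.92, adjusted p = 0.0158 and 0.00731), LTBR without passing when the replicate number was a block (adjusted p = 0.0513).

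Of 11 ligands, 2 were tested in culture and 3 in the xenografts. TNFSF13B, which encodes the cytokine BAFF, rose in shAMB from 0.215 to 0.816 CPM (log2 fold change 1.91, edgeR adjusted p = 0.000132) and in the xenografts from 0.464 to 2.22 (2.25, adjusted p = 0.000466), where the shAMB value was chosen after it was seen, and EDA, the ligand of the ectodysplasin receptor, fell in shAMB from 1.18 to 0.583 (−1.0, adjusted p = 0.000264). Of 6 further inhibitors, all tested, 1 was higher and 1 lower in sh4, 3 and 1 in shAMB, and 2 and 0 in the xenografts. NKIRAS1, which encodes a small GTPase that slows I-kappaB degradation, rose in shAMB from 24.1 to 45.8 CPM (0.93, adjusted p = 2.02e-07) and in the xenografts from 21.4 to 47.7 (1.16, adjusted p = 5.19e-05), and its paralog NKIRAS2 rose in shAMB by 0.71 (adjusted p = 6.71e-05), or 0.44 with GC and length trends removed. NFKBIZ, a nuclear I-kappaB protein, was higher in sh4 (0.32, adjusted p = 0.028) and lower in shAMB (−0.28, adjusted p = 0.0335), and COMMD1, which promotes RELA turnover, was lower in sh4 (−0.25, adjusted p = 0.0142). With GC and length trends removed NFKBIZ and COMMD1 did not pass (adjusted p = 0.0595, 0.231 and 0.124), nor did they with the replicate number as a block (adjusted p = 0.114, 0.108 and 0.0595).

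The genes whose log2 level ran most like that of each member over the 18 culture libraries, among 12708 or 12709 genes searched, are given as a description. These libraries fall into 6 groups and share the GC trends above. For RELA they were NUCB1 and LPCAT4 (Pearson r = 0.99 and 0.98 over 18 libraries), for REL IQCB1 and ZNF100 (0.97 and 0.97), and for NFKB1 RTN1 and CAPN6 (0.92 and 0.91). For NFKB2 they were SLC7A5 and XRCC3 (0.94 and 0.93), for NFKBIA TFAP4 and RANBP10 (0.91 and 0.90), for NFKBIB PTPN23 and MRPS2 (0.96 and 0.96) and for NFKBIE THTPA and ZNF629 (0.95 and 0.95). For BIRC3 they were PTPRM and TBL2 (0.93 and 0.92), for TNFAIP3 MAPKAPK2 and FAM228B (0.85 and 0.84) and for RELB, at its few counts, IL11 and PLEKHH1 (0.80 and 0.79). Over the 8 xenografts, which the choice did not use, the values of the first-named gene were 0.68 for RELA, 0.25 for REL, −0.25 for NFKB1 and 0.95 for BIRC3. They were 0.82 for NFKB2, 0.43 for NFKBIA, 0.66 for NFKBIB, 0.39 for NFKBIE, 0.58 for TNFAIP3 and 0.85 for RELB. The tumors fall into 2 groups, so that these values also hold differences between the groups, such as that of BIRC3.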

How the data were processed

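Stranded total RNA libraries were sequenced from 18 KELLY cultures and 8 KELLY xenografts. The authors deposited RSEM expected counts per gene, not normalized, and TPM made from them by RSEM. The submitters' processing notes name STAR, SAMtools, RSEM and hg38 without versions. The strand setting and the annotation are not given in the sources used here. Expected counts were rounded to whole numbers (91.8% of culture values and 91.0% of xenograft values were already whole). The TPM values were read but no result rests on them. Each table was fitted separately with the edgeR (version 4.0.16, R 4.3.3) quasi-likelihood test, two-sided, after filterByExpr and TMM scaling, with all groups of a table in 1 fit and Benjamini-Hochberg adjustment over 14905 genes in culture and 15960 in the xenografts. An adjusted p under 0.05 was called. The edgeR script was tested on simulated data. Intervals cover counting error and the spread between libraries.

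The alternatives were DESeq2 (version 1.42.0), RLE scaling, no filter, the replicate number as a block, GC content and length trends removed as offsets (splines of 4 degrees of freedom), only the libraries compared, and each library left out. Pathway genes named were the 3 largest log2 fold changes per list and comparison among called genes averaging 1 CPM or more, and like genes the 2 with the highest Pearson correlation. The members and lists were chosen with earlier results of these data known.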

Additional observations from a re-analysis of the deposited data

Results flagged for a closer look

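Of the differences between line effects, 8 passed the edgeR test of the difference itself. Of the 9 genes tested, 2 passed in sh4 minus EV, 2 in shAMB minus EV and 4 in sh4 minus shAMB. Over all genes tested the shares that passed were 32.6%, 45.5% and 60.9% in the same order. REL responded to doxycycline more in sh4 than in EV (0.71 on the log2 scale) and less in shAMB than in EV (−0.32), and its sh4 and shAMB responses differed by 1.04. NFKBIE was lower in the response of sh4 than in that of EV (−0.76) and of shAMB (−1.04). BIRC3 was higher in the response of shAMB than in that of EV (1.61, which includes an uncalled fall of −0.69 in EV), and lower in sh4 than in shAMB (−1.34). RELA was lower in sh4 than in shAMB (−0.76), a value that turned to 0.03 with GC content and length trends removed. Of the others, REL in shAMB minus EV (−0.23, adjusted p = 0.0545) and both NFKBIE differences (−0.40 and −0.30, adjusted p = 0.0571 and 0.117) did not pass with these trends removed, and NFKB2 (−0.75 and 0.85) and NFKBIB (−0.70 and 0.65) then passed in shAMB minus EV and in sh4 minus shAMB. No library stood apart from its group in the 20 groups of 4 xenografts tested, 10 genes in each of 2 groups.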

How the results depend on the processing

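Of 19 called differences of members, 12 passed in each alternative run for them and 7 did not in at least 1. Removing GC content and length trends turned the sign of NFKBIB in sh4 (0.070), of RELA (−0.087), NFKB1 (0.18), NFKBIB (−0.58) and NFKBIE (−0.074) in shAMB, of NFKB2 in sh4 minus EV (0.10), and of RELA (0.028), NFKB1 (−0.28) and NFKBIB (0.65) in sh4 minus shAMB. It also left 1 member called in sh4 minus EV, against 2. With these trends removed, higher genes among all those called moved from 56.0% to 45.4% in sh4, from 54.8% to 36.3% in sh4 minus EV, from 45.7% to 33.6% in sh4 minus shAMB, from 14.3% to 42.9% in EV, from 53.3% to 81.9% in uninduced sh4 minus EV and from 72.7% to 47.8% in uninduced shAMB minus EV. The median over all genes went from −0.09 to −0.20 in sh4 minus shAMB, and from 0.10 to 0.17 in shAMB. The cause was not tested.

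With the replicate number as a block, shAMB minus EV kept 1 member of 2 (REL was lost, −0.32, edgeR adjusted p = 0.101), and NFKB1 in the xenografts was lost (adjusted p = 0.105). Correlations of deviations between libraries of the same number were −0.54, −0.08 and −0.60 in sh4 and −0.10, −0.03 and −0.23 in EV. In shAMB they were −0.10, 0.0009 and 0.13, and in the xenografts −0.50, −0.01, 0.37 and −0.15. Deviations are taken from means of 3 or 4 libraries that also differ in GC slope. These values therefore cannot decide whether the numbers pair the samples. Leaving out 1 library gave 3 to 5 called members in sh4, 3 to 4 in shAMB, 2 to 5 in sh4 minus EV, 1 to 2 in shAMB minus EV, 4 to 5 in sh4 minus shAMB, 3 to 4 in the xenografts and 0 in EV and in both uninduced comparisons. The 5 in sh4 minus EV came without the sh4 library 3 with doxycycline, by adding RELA (−0.69), NFKB2 (−0.56) and NFKBIB (−0.80). Without that library 50.1% of all genes tested were called in sh4 minus EV, against 32.6% with it. With 1 library left out, NFKB2 ranged from −0.22 to 0.24 in sh4 minus shAMB and from −0.14 to 0.066 in shAMB, and with the trends removed it was 0.85 and −0.65. The block could not be fitted for the uninduced comparisons. Over all genes, the EV count of 14 became 2 with the block, 28 with the trends removed and 6 with the EV libraries alone, and 7 to 14 with 1 library left out. The sh4 count of 6091 became 3727 with the sh4 libraries alone, and the sh4 minus EV count of 4856 became 2713 with the block and 3753 to 7557 with 1 library left out. The uninduced counts of 167 in sh4 and 227 in shAMB became 717 and 467 with the trends removed, 23 and 85 with only the libraries compared, 351 in sh4 by DESeq2, and 75 to 269 and 125 to 188 with 1 library left out. Depth limits RELB in culture, TNFAIP3 and BIRC3.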

Other observations

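Upstream of the members, 3 genes responded to doxycycline in different directions or to different extents in the hairpin lines, and were chosen after their values were seen. Over all genes tested, 27.8% were higher and 33.1% lower in sh4 minus shAMB. Of the 25 kinases and ubiquitin enzymes tested, 6 were higher and 8 lower there. The values below are without removal of GC and length trends, and in shAMB the GC slope and induction cannot be told apart. MAP3K14 differed by −2.20 on the log2 scale between the sh4 and shAMB responses (edgeR adjusted p = 1.54e-05), and TNFRSF1A by −1.40 (adjusted p = 6.16e-07), since it fell in sh4 and rose in shAMB from 19.7 to 29.9 CPM (0.60, adjusted p = 6.05e-05). TRAF3 differed by 1.27 (adjusted p = 3.04e-07): in shAMB it fell from 22.5 to 8.75 CPM (−1.36, adjusted p = 1.86e-09), while in sh4 it read 23.8 and 22.3 (−0.10, adjusted p = 0.373).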
